A study of Drosophila melanogaster with 3 samples.

Results

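Hey-GFP occupied 269 regions that lie away from annotated gene starts and hold the class C site CACGCG but not the palindromic E-box CACGTG. They are called here distal class C regions. They were taken from the 3319 regions of the authors' list of reproducible regions, called the IDR list (irreproducible discovery rate, a measure of how well a region's rank is repeated between replicates). A region counted as distal when its summit, the point of highest signal, was more than 500 bp from every annotated transcription start site (TSS). The class C site had to lie within 100 bp of the summit on either strand, with no palindromic E-box in the same 201 bp window. Within the IDR list, signal, replicates and neighbouring genes had no part in the choice, but the list itself was made on signal and on repeatability between replicates. Of the 3319 regions, 2086 were distal, and these divided into 471 with a palindromic E-box (63 of which also held a class C site), the 269 with a class C site only, and 1346 with neither. A further 155 regions near a TSS held a class C site only.

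The study was a chromatin immunoprecipitation with sequencing (ChIP-seq) of Hey in Drosophila melanogaster. The animals came from a transgenic line that carries, as a stable insertion, Hey with GFP at its C-terminal end. Whole embryos of both sexes, 6 to 24 h old, were used in 3 biological replicates of 1 group, with no other genotype, stage or treatment. The antibody label reads Hey, chromatin was sheared by sonication, and a separately listed control entered the region calls. A free-text label calls each library an input control, whereas the assay label says transcription factor ChIP-seq. The labels do not say whether replicates came from separate collections or how far the fusion protein replaces the native one. A whole embryo mixes all tissues, so fewer cells bound and weaker binding per cell cannot be told apart. All lists but the IDR list were deposited with 30000 regions each, the read depth behind them is unknown, and the IDR list was the 3319 pooled regions of highest signal.

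Hey is a basic helix-loop-helix factor of the Orange class, the group that also holds Hairy and the Enhancer of split proteins. Members of this class act mainly as repressors, often with the corepressor Groucho, and many are targets of Notch signalling. In the fly embryo Hey is known from the nervous system, where it marks newly born neurons that received a Notch signal. Proteins of the class bind the E-box CACGTG and the related class C site CACGCG, a single-base variant. For Hairy, preferred class C sites have been described with a pair of guanines before the core and an A or C followed by C after it.

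The 5 distal class C regions of highest signal are shown first. Whether Hey bound the class C site itself in these regions was not tested. Each line is read 5′ to 3′ on the strand of the site, from the release 6 genome sequence (dm6), with the class C site in capitals. They come from 3R:5504037-5504066 (plus strand), 3L:22890190-22890219 (minus), 2L:4333335-4333364 (plus), 3R:8225729-8225758 (minus) and X:2286466-2286495 (minus).

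NKCC: agggggcaagagCACGCGaataaccccctt
slif: gggccagtgaagCACGCGccaggctttatc
Atet: cgctcacacacaCACGCGgattaatttaag
lncRNA:CR45550: accgcacgccggCACGCGttaccgctttgg
CG2865: ccaaccttgcgaCACGCGcgcgcctttcgc

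Bases outside the core differed widely among these strong regions. The Atet site ends a run of CA repeats, and only the site by lncRNA:CR45550 has a pair of guanines before the core. The wider window around the slif site, 3L:22890142-22890262 on the plus strand, is given because its summit sat within 2.5 bp of the centre of the site. The class C site reads CGCGTG on this strand.

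slif window: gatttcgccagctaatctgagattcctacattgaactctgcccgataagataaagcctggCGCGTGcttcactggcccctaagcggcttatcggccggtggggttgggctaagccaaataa

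Most distal class C regions held a single site (241 regions), 24 held 2 and 4 held 3. Overlapping sites on opposite strands were counted as 2. The region by lncRNA:CR43440, 3R:28595955-28596155 on the plus strand, is shown as the only one of the 4 whose 3 sites are separate.

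lncRNA:CR43440 window: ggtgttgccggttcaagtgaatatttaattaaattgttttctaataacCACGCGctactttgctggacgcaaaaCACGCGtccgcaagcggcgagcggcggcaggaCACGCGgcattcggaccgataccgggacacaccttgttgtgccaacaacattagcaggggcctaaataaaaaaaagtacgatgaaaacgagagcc

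In 6 regions the site on 1 strand overlapped a site on the other, giving the 8-base palindrome in capitals below. The stretches are 3L:5179069-5179098, 3R:21376418-21376447 and X:4209314-4209343, all written on the plus strand.

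shep: ccacaaacacaCACGCGTGcacacacactt
mod(mdg4): tctctctctggCACGCGTGccttttggcat
Fas2: cttttcttgcgCACGCGTGccccgatattt

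In 14 regions the nearest site had the whole 10-base form described for Hairy. The 3 with the highest signal, and the one inside how, are shown with the 10 bases in capitals, at 3L:905575-905604 (minus strand), 2L:11456791-11456820 (plus), 3L:8452323-8452352 (minus) and 3R:22049401-22049430 (plus).

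mat: aagtgctctgGGCACGCGACcggcgaccaa
lncRNA:CR46454: gctaaatagcGGCACGCGACcaacattttc
Gug: acggattaggGGCACGCGCCccccggtttt
how: ctcgtgatgaGGCACGCGACtaccagcagc

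The signal of a region is the authors' caller's own value, of unstated scale, and is used here only to rank regions within a list. Distal class C regions had a median pooled signal of 183 (interquartile range 137 to 271, from 115 to 1108), against 199 in distal E-box regions, 162 in distal regions with neither site and 173 in all IDR regions. The 100 strongest IDR regions held 11 distal class C regions, 25 distal E-box regions and 25 distal regions with neither site. With the IDR list cut by signal into 5 parts of about equal size, distal E-box regions made up 37.3% of distal regions in the strongest part, against 18.6% in the weakest. From the strongest part to the weakest, the class C share was 14.4%, 15.8%, 12.7%, 9.72% and 12.1% of distal regions. E-box regions are part of this total but cannot count as class C, which lowers the class C share most in the strongest part. That part held 58 class C and 150 E-box regions among 402 distal regions. The weakest held 54 and 83 among 446. The share among distal regions without an E-box was not taken, so these values do not show whether class C sites had a peak at the top.

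The strongest distal class C region lay 1317 bp upstream of NKCC, a gene of the sodium-potassium-chloride cotransporter family. Its pooled signal was 1108, with ranks of 6, 80 and 43 in the lists of replicates 1, 2 and 3. The next lay in an intron of slif, which encodes an amino acid transporter, with a signal of 1085 and ranks of 9, 86 and 37. Atet, an ABC transporter gene, had a region 566 bp upstream with a signal of 924 and ranks of 49, 46 and 41. All 3 regions were thus among the 100 highest of every replicate.

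Of the 20 strongest regions, 4 lay at genes of transcription factors known from the nervous system. This grouping is not one of the gene lists compared below, and its share among all distal or all IDR regions was not counted. The count of 4 thus has no background and does not show that such genes were favoured. An intron of jing, which encodes a zinc finger factor of the midline and trachea, held a region with a signal of 737 and ranks of 174, 88 and 28, nearest the TSS of CG15233. An intron of erm, a zinc finger gene that acts in neural progenitors, held one with 620 and ranks of 532, 83 and 68, nearest a tRNA gene. Fer2, a basic helix-loop-helix gene, had a region 1234 bp upstream with 590 and ranks of 437, 150 and 55. Lim1, a LIM homeobox gene, held one in an intron with 589 and ranks of 743, 65 and 82. In each of the 4, replicate 1 ranked the region furthest down.

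The remaining regions of the 20 lay at genes of other kinds. FASN1, which encodes a fatty acid synthase, held an intronic region with a signal of 537 and ranks of 72, 538 and 270. REPTOR, a transcription factor held in check by TORC1, held one with 537 and ranks of 33, 939 and 898. In both regions replicate 1 gave the rank nearest the top. Among the rest of the 20, regions lay at CG2865 (833), in Myo31DF nearest CG13144 (729), at HmgZ (723), puml (710), CG9837 (676) and mat (529). A further 5 were nearest long non-coding RNA genes, lncRNA:CR45550 (887), lncRNA:CR44737 (703), lncRNA:CR43440 (558), lncRNA:CR44526 (514) and lncRNA:CR46454 (502). Of the 20, 11 lay in introns, 6 between genes, 2 in exons of non-coding genes and 1 in a 3′ UTR. In 12 of them the site was within 25 bp of the summit, and 5 (at Atet, jing, Lim1, REPTOR and lncRNA:CR46454) had a palindromic E-box inside the called interval but beyond 100 bp from the summit.

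**Figure D1:**
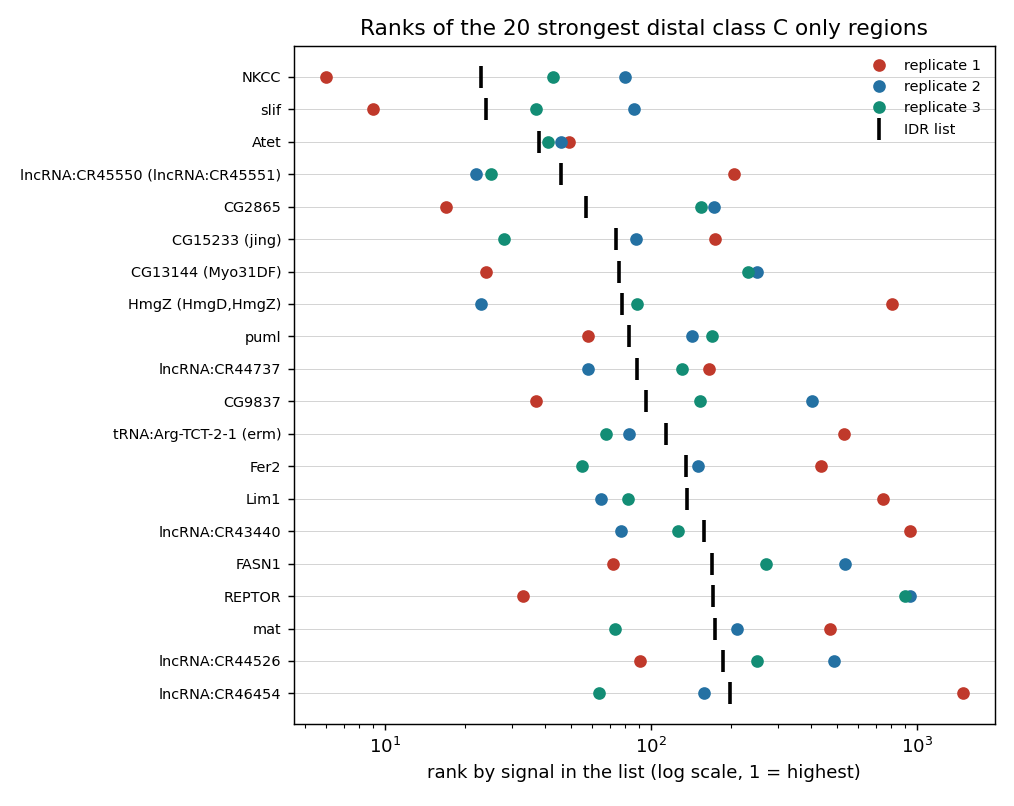
Rank by signal (log axis, 1 is the highest) of the 20 strongest distal class C regions in each replicate list (coloured points) and in the IDR list (black ticks), with the containing gene in parentheses where it is another gene. Replicate 1 gave the highest rank of the 3 in 9 regions and the lowest in 11.

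Replicate 1 stood apart from the others in how it ranked these regions. Over the 244 distal class C regions matched in replicates 2 and 3, Spearman's rho between the ranks was 0.76, against 0.34 between replicates 1 and 2 (242 regions) and 0.34 between replicates 1 and 3 (243 regions). These correlations run over regions of 1 list chosen for high pooled signal and are given as descriptions. Of the 232 matched in all 3 replicates, replicate 1 gave the highest rank in 77, the middle rank in 26 and the lowest in 129. The same correlations and counts were not taken for all distal or all IDR regions. They thus do not show that this was particular to distal class C regions. Whether depth, control or embryo collection differed in replicate 1 was not tested, so values are given per replicate below.

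A distal class C region was counted as found in a replicate when that replicate had a summit within 100 bp among its own 3319 regions of highest signal. In all 3 replicates, 113 of 269 were found (42.0%, 95% Wilson interval 36.3 to 48.0), against 36.5% of all IDR regions, 50.1% of distal E-box regions and 30.8% of distal regions with neither site. Another 101 were found in 2 replicates, 49 in 1 and 6 in none. The 32 with the highest pooled signal were found in all 3. By replicate, 65.8%, 78.1% and 75.5% of distal class C regions were found in replicates 1, 2 and 3, against 66.3%, 72.6% and 68.4% of all IDR regions in the same order. In replicate 1 the share was thus close to that of the whole list, and in replicates 2 and 3 it was above it. Of all distal IDR regions, 63.3%, 76.2% and 69.2% were found in replicates 1, 2 and 3. Beside these, the share was close in replicate 2 as well (95% Wilson interval of the distal class C share 72.7 to 82.6).

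Averaged over replicates, 73.1% ± 6.46 of distal class C regions were found (SD, n = 3), against 66.3% ± 6.37 of distal regions with neither site. The share was higher in 3 of 3 replicates, by 3.39, 4.44 and 12.7 percentage points in replicates 1, 2 and 3 (two-sided exact permutation test with values unpaired, p = 0.2, adjusted p = 0.28 over 7 tests by Benjamini-Hochberg). Against distal E-box regions, with 77.1% ± 10.9, it was higher in 1 of 3 replicates (exact permutation p = 0.6, adjusted p = 0.6). The median rank was 1760 ± 341 for distal class C regions, against 1563 ± 544 for distal E-box regions (exact permutation p = 0.6, adjusted p = 0.6) and 2197 ± 186 for distal regions with neither site (exact permutation p = 0.2, adjusted p = 0.28). The difference from regions with neither site was -239, -274.5 and -797.5 ranks in replicates 1, 2 and 3, nearer the top for distal class C regions in 3 of 3. Both values of such a pair come from the same replicate list. With 3 values against 3 the smallest two-sided p is 0.1, and 0.25 when values are paired by replicate, so no test of this design could pass 0.05, and a p above it does not show that the classes were alike. The p-values measure only the spread between these 3 samples.

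**Figure D2:**
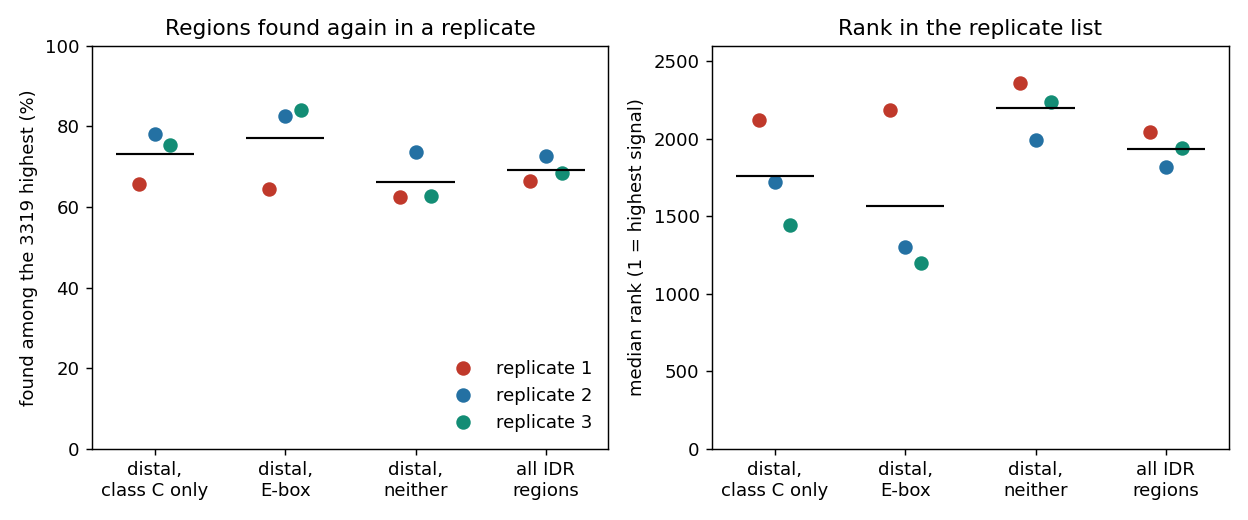
Share of regions found among the 3319 highest of each replicate (left, percent) and their median rank in the replicate list (right, 1 is the highest), by region class, with 1 point per replicate and a line at the mean. In replicate 1 the distal class C and E-box classes lay at 65.8% and 64.5%, and in replicate 3 at 75.5% and 84.1%.

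Which replicates held a region was also counted for class C sites near a TSS. Of the 155 near a TSS, 121 were found in replicate 1 (78.1%), 93 in replicate 2 and 101 in replicate 3 (65.2%). Found in replicate 1 alone were 23 distal class C regions (8.55%), against 24 of those near a TSS (15.5%), 9.92% of all distal regions and 11.8% of all IDR regions. Found in replicates 2 and 3 but not 1 were 60 distal class C regions (22.3%), against 16 near a TSS (10.3%), 21.1% of all distal regions and 18.7% of all IDR regions. Both shares of the distal class C regions were near those of all distal regions, and no test was made.

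Each replicate's own full list was then read without the IDR list. Among the 3319 highest regions of a replicate, a class C site without an E-box was held by 11.8%, 11.9% and 12.3% of distal regions in replicates 1, 2 and 3. Among the 3319 lowest it was held by 4.97%, 5.23% and 4.45%. The groups did not overlap. The means were 12.0% ± 0.245 among the highest and 4.88% ± 0.397 among the lowest (SD, n = 3, higher in 3 of 3, exact permutation p = 0.1, adjusted p = 0.233). The 3 pairs of values come from the top and bottom of the same lists.

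The share was followed down each list. In bins of 3000 regions by rank, it was 12.1%, 12.4% and 12.5% of distal regions in the first bin of replicates 1, 2 and 3, and 5.17%, 5.10% and 4.52% in the last. By the third bin it was 9.63%, 6.54% and 7.73%, and in replicate 2 it stayed between 4.76% and 5.50% from the fifth bin on. Counts in a bin were large enough for an interval of under 2 percentage points on either side, for example 198 of 1633 distal regions in the first bin of replicate 1 (95% Wilson interval 10.6 to 13.8). The distal E-box share in the same bins was 19.4%, 21.2% and 23.4% in the first and 3.97%, 2.73% and 3.35% in the last. Distal E-box regions were thus the more frequent of both classes at the top of each list and the less frequent at the bottom. Regions with both sites count as E-box regions, so the class C share leaves out part of the class C sites.

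**Figure D3:**
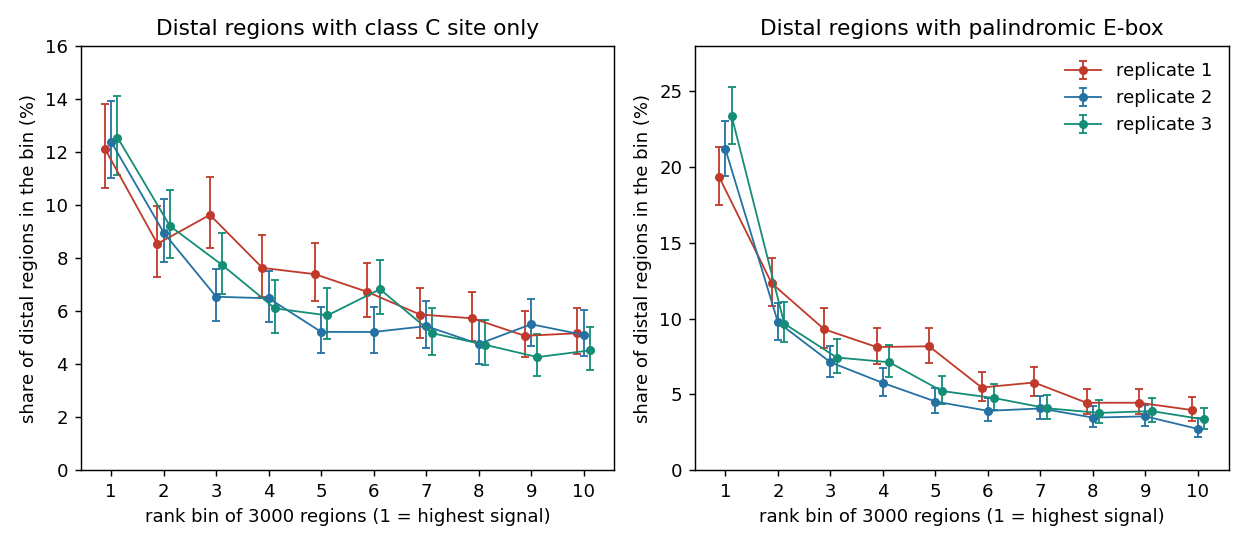
Share of distal regions with a class C site only (left) and with a palindromic E-box (right) in bins of 3000 regions by signal rank (x axis, bin 1 is the highest), in percent, for each replicate with 95% Wilson intervals. In bin 1 the class C share lay between 12.1% and 12.5% in the 3 replicates, and in bin 10 between 4.52% and 5.17%; the axes differ in height.

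The position of the site within the window was not used in choosing the regions beyond the limit of 100 bp. The centre of the nearest class C site lay at a median of 30.5 bp from the summit (interquartile range 13.5 to 57.5), and 114 of 269 sites (42.4%) were within 25 bp. Distal E-boxes lay closer, at a median of 24.5 bp, with 51.8% within 25 bp. Class C sites near a TSS lay farther off, at a median of 46.5 bp, with 33.5% within 25 bp. In the 144 distal class C only regions among the 3319 lowest of the pooled list, the median was 49 bp, and 23.6% were within 25 bp. Sites fell to the left of the summit in 135 regions and to the right in 134, and 134 sites were on the plus strand.

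The same measure was taken in each replicate's own list. Among the highest regions, 41.1%, 38.1% and 37.1% of distal class C regions of replicates 1, 2 and 3 had the site within 25 bp of the summit. Among the lowest, 25.4%, 26.8% and 26.2% did. The groups did not overlap, with means of 38.8% ± 2.11 among the highest and 26.1% ± 0.745 among the lowest (SD, n = 3, higher in 3 of 3, exact permutation p = 0.1, adjusted p = 0.233).

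**Figure D4:**
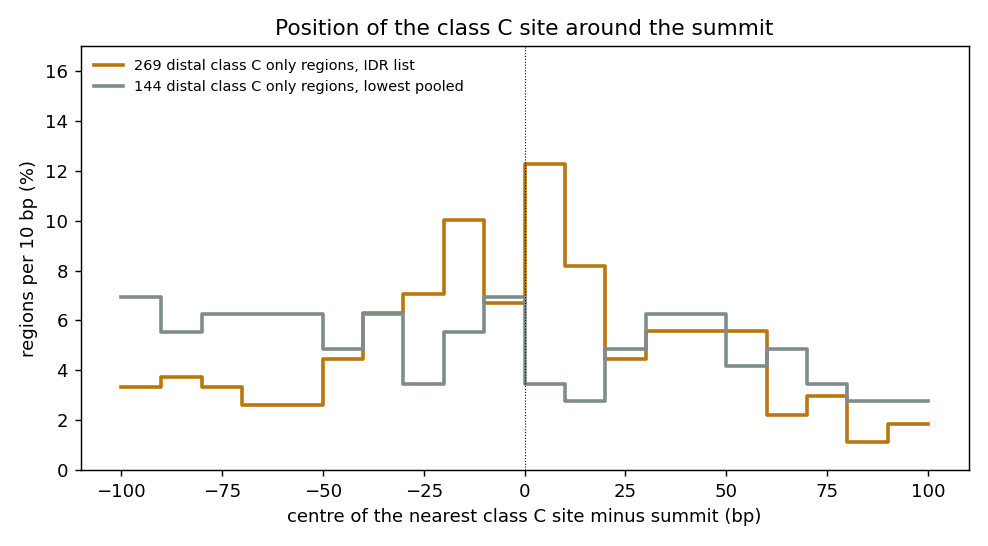
Centre of the nearest class C site minus the summit (x axis, bp, in bins of 10 bp) as a percentage of regions, for the 269 distal class C regions of the IDR list and the 144 distal class C only regions among the lowest 3319 of the pooled list. The bins from -10 to 0 bp and from 0 to 10 bp held 6.69% and 12.3% of the 269 regions, and the outermost bins held 3.35% and 1.86%. In the 144 regions the bins from -10 to 0 bp and from 0 to 10 bp held 6.94% and 3.47%.

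Regions with a central site were found again more often. Of the 114 with the site within 25 bp, 59 were found in all 3 replicates (51.8%), against 54 of the 155 with the site farther away (34.8%). Their median signal was 194, against 172. No test was made between these groups of regions. The number of sites showed no such difference: the 28 regions with 2 or more sites had a median signal of 190 and 12 of them (42.9%) were found in all 3 replicates, against 183 and 101 of 241 (41.9%) for a single site. Of the 6 with the overlapping palindrome, only the one in an intron of shep, a gene for an RNA-binding protein, was found in all 3 replicates. The 14 with a palindromic E-box elsewhere in the interval had a median signal of 240, and 6 were found in all 3 replicates.

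The bases beside the core differed from those beside the same 6 letters elsewhere. Sites are written so that the core reads CACGCG, with positions counted outward from the core. The comparison set was the 185 class C sites lying 400 to 600 bp from distal IDR summits. Directly before the core, G was present at 39.8% of the 269 sites, against 30.3% of the flanking sites. The base before that was G at 48.3% of sites, against 22.2% of flanking sites. After the core, the first base was C at 41.3%, against 28.6%, and the second was C at 50.9%, against 28.6%. T directly before the core was at 7.43%, against 12.97%. Class C sites near a TSS were like the distal ones in some of these positions, with C first after the core at 39.4% and T directly before it at 7.10%. They had G directly before the core at 31.6%, G one base further out at 25.8% and C second after the core at 38.1%. Apart from the G directly before the core, these positions were picked out after all 10 flanking positions had been seen, and the windows were richer in G and C than their flanks (median 50.2% against 38.8%).

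In the replicate lists, G stood directly before the nearest site in 38.8%, 43.4% and 41.7% of the highest distal class C regions of replicates 1, 2 and 3. Among the lowest it stood there in 31.2%, 26.2% and 27.0%. The means were 41.3% ± 2.33 among the highest and 28.1% ± 2.66 among the lowest (SD, n = 3, higher in 3 of 3, exact permutation p = 0.1, adjusted p = 0.233). One base further out, G was at 43.0%, 44.5% and 45.9% of sites in the highest regions, against 23.2%, 24.8% and 30.3% in the lowest. C at the second base after the core was at 49.5%, 53.2% and 50.6%, against 41.3%, 30.2% and 33.6%. Neither pair of groups overlapped. These 2 positions were picked after their values were seen, and most other positions and bases were not compared between highest and lowest regions. The lack of overlap thus has no background and does not show that these positions stand out. The G and C content of the lowest regions is not given here. C at the first base after the core did overlap, with 41.6%, 37.4% and 37.5% in the highest regions, against 29.7%, 38.9% and 32.8% in the lowest.

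**Figure D5:**
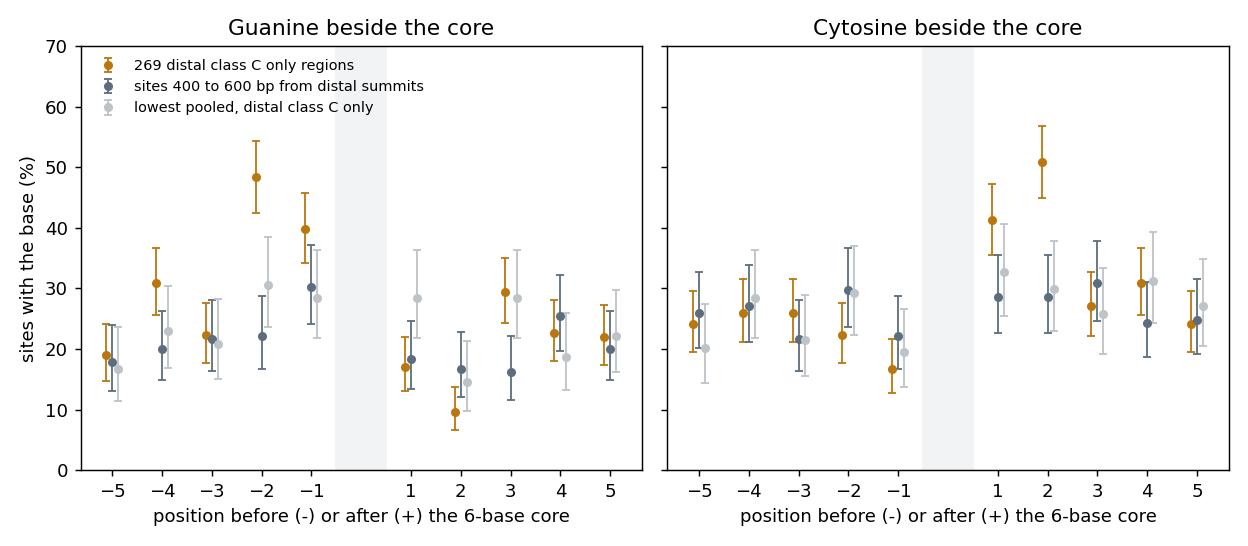
Percentage of class C sites with G (left) or C (right) at each of the 5 positions before and after the 6-base core, with 95% Wilson intervals, for the 269 distal class C regions, for 185 sites 400 to 600 bp from distal IDR summits and for the 144 distal class C only regions among the lowest of the pooled list. G at the second position before the core reached 48.3% and C at the second position after it 50.9% in the 269 regions.

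Both guanines together preceded the core in 52 of 269 sites (19.3%), against 5.41% of flanking sites, 9.72% of the sites in the lowest pooled regions and 6.45% of class C sites near a TSS. The 10-base form shown above, with both guanines and with AC or CC after the core, was held by 14 sites (5.20%, 95% Wilson interval 3.13 to 8.55), against 2 of 185 flanking sites (1.08%). The lowest pooled regions held it at 1 of 144 sites, and regions near a TSS at 3 of 155. The 14 regions had a median signal of 201, and 8 of them were found in all 3 replicates. The strongest were nearest mat (529) and lncRNA:CR46454 (502) and in an intron of Gug (501.5), the gene of the corepressor Atrophin. The region inside how, which encodes an RNA-binding protein of muscle and tendon, had a signal of 299.

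Class C is 1 of the 9 words that differ from CACGTG by a single base, when both strands are counted together. Changes are written from CACGTG, counted from 1 at its 5′ end. Over the 1615 distal IDR regions without CACGTG in the window, CACGCG (T5C) was present in 16.7%, against 4.09% of windows 400 to 600 bp away, a ratio of 4.08. Those outer windows were not filtered for CACGTG. The ratio was 3.66, 3.73 and 3.84 for the highest regions of replicates 1, 2 and 3. The next word, CACGAG (T5A), reached 6.69% against 3.44%, a ratio of 1.95. CAAGTG (C3A) had a ratio of 1.50, CACGGG (T5G) 1.49, CATGTG (C3T) 1.46, CACGTT (G6T) 1.34, CAGGTG (C3G) 1.28, CACGTC (G6C) 1.07 and CACGTA (G6A) 0.985. Of the 9, only CACGCG had a ratio above 2 at these regions, and it was also above 2 in each replicate. A ratio above 2 was not particular to it among words of the same composition. The control word CGCACG, which can overlap the site, had a ratio of 2.42 (2.34, 2.52 and 2.41 in replicates 1, 2 and 3), and the control word CGACGC one of 1.66.

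Other words searched in the same window were mostly as frequent in distal class C regions as in distal regions with neither site. The repeat CACACACA was present in 11.5%, against 11.4%, and in 3.35% of the flanks of the class C regions. The GATA word AGATAAG was in 6.69% of distal class C regions and in 6.46% of regions with neither site, against 1.91% of distal E-box regions. In the replicate lists the GATA word was in 6.542%, 4.15% and 2.32% of the highest distal class C regions, against 2.95%, 1.56% and 2.75% of the highest distal E-box regions, and the groups overlapped. The GAGA word GAGAGAG was in 5.95%, against 6.46% of regions with neither site. The SoxB word ACAATGG was in 4.46%, against 2.75%. The homeodomain word TTAATTA was in 5.20% of distal class C windows, against 10.97% of their flanks. It was likewise in 4.46% of distal E-box windows, against 10.4% of their flanks, and in 5.72% against 9.70% for regions with neither site. The Su(H) word GTGGGAA, bound by the Notch pathway's DNA-binding factor, was in 2.97%, against 3.16% of the flanks. The control word CGCACG was in 18.6% of distal class C windows, against 22.3% of distal E-box windows and 9.44% of regions with neither site. It was in 3.90%, 4.14% and 4.64% of the flanks of these sets. Its excess was thus not particular to distal class C regions. The control word CGACGC was in 10.8%, against 5.31% of distal E-box regions, 6.84% of regions with neither site and 3.53% of the flanks of the class C regions. The control word GCACGC, which can overlap a class C site with G before it, was in 48.3%. It was in 10.2% of distal E-box regions, 10.5% of regions with neither site and 14.3% of all IDR windows. Words rich in C and G were thus also more frequent in distal class C regions than in regions with neither site. Across all 3319 IDR windows, CACGCG was in 15.03%, CACACACA in 10.5%, AGATAAG in 5.36%, GAGAGAG in 6.36%, ACAATGG in 2.92%, TTAATTA in 5.69%, GTGGGAA in 2.89%, CGCACG in 12.1% and CGACGC in 7.65%.

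Most distal class C regions lay in introns: 149 of 269 (55.4%, 95% Wilson interval 49.4 to 61.2), against 52.7% of distal E-box regions and 66.6% of distal regions with neither site. Another 97 lay between genes (36.1%), against 41.6% and 26.4%. Only 2 lay in coding exons, 5 in 5′ UTRs, 6 in exons of non-coding genes and 10 in 3′ UTRs (3.72%, against 1.49% and 1.26%). The median distance to the nearest TSS was 2960 bp, against 4072 bp for distal E-box regions and 2391 bp for distal regions with neither site, and 46 regions were more than 10000 bp away. By chromosome arm, 72 lay on 3L, 65 on 3R, 54 on 2R, 49 on 2L, 27 on X and 2 on 4. The share on X was 10.04%, against 14.0% and 15.6%.

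Another IDR summit lay within 2 kb of 111 of the 269 regions, a distal E-box summit within 2 kb of 28, and another distal class C summit within 2 kb of 12. These counts include other summits of the same called interval, which 12 of the 269 regions had. The same distances were not taken for other IDR regions, so the counts have no background and do not show clustering. The nearest TSS belonged to a gene annotated as ncRNA, a class that holds the long non-coding RNAs, in 52 regions (19.3%), against 19.8% of all distal IDR regions, and to a tRNA gene in 5. The gene with the most distal class C regions nearest to it was lncRNA:CR45393, a gene of 0.509 kb on 3L with 4 such regions among 5 IDR regions. Their signals were 305, 275, 174 and 119. The first was found in all 3 replicates, with ranks of 566, 793 and 1272, and the others were found in 2, 2 and 1. jing held 3 (signals 737, 165 and 150) among 20 IDR regions in its 119.787 kb.

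The genes nearest to or containing a distal class C region were compared with 16 lists of gene families. Gene assignment by nearest TSS or containing gene does not show which gene is regulated. The list counts are descriptions and carry no test, and the distal class C regions are themselves part of the distal set they are set beside. In the bHLH-Orange family, 2 of 12 genes had such a region: Hey itself and cwo, a repressor of the circadian clock. They made up 0.743% of distal class C regions, against 0.384% of all distal regions. The region in the intron of Hey had a signal of 235 and ranks of 1557, 1137 and 511 in replicates 1, 2 and 3, with the site 58.5 bp from the summit. The region in cwo had a signal of 203 and ranks of 567, 15208 and 1418, so replicate 2 did not hold it among its highest.

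In the Notch pathway, 3 of 35 genes had a distal class C region. The region in an intron of numb, which encodes an inhibitor of Notch, had a signal of 286 and ranks of 909, 289 and 425. The region in an intron of Delta, a Notch ligand, had 266 and ranks of 1258, 622 and 865, with its site 8.5 bp from the summit, and was the only IDR region assigned to that gene. The region in neur, which encodes a ubiquitin ligase for Notch ligands, had 161 and was found in replicates 2 and 3, with ranks of 1994 and 1305. The 3 regions made up 1.12% of distal class C regions, against 0.863% of all distal IDR regions, so the share was near the background.

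Among the proneural and other basic helix-loop-helix genes, 5 of 40 had a distal class C region. They were Fer2 (590), Fer1 (410), tap (154), trh (137) and sim (123), where trh and sim are regulators of trachea and midline. They were 1.86% of distal class C regions (95% Wilson interval 0.796 to 4.28), against 1.10% of all distal regions. In the list of neuroblast and temporal factors, 6 of 32 genes did, and their regions were 3.35% of distal class C regions, near the 3.12% of all distal regions. The strongest of these were jing (737), mamo (296), the SoxB gene D (195) and scrt (154), a gene of the Snail family. Neuronal transcription factors had 11 of 52 genes with 13 regions, led by Lim1 (589), Lim3 (486), aop (334), an Ets-type repressor, and oc (283), a homeobox gene. These 13 regions were 4.83% of distal class C regions (95% Wilson interval 2.85 to 8.09), against 3.02% of all distal and 2.35% of all IDR regions.

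Axon guidance and adhesion genes formed the longest list and held the most distal class C regions of the 16. In this list 13 of 79 genes (16.5%) had a distal class C region, and its 14 regions were 5.20% of distal class C regions (95% Wilson interval 3.13 to 8.55), against 2.92% of all distal and 2.17% of all IDR regions. By genes, the share was higher in the lists of Ski, Sno and stress factors (27.3%), neuronal transcription factors (21.2%), neuroblast and temporal factors (18.75%) and the bHLH-Orange family (16.7%). The strongest axon guidance and adhesion genes were klg (355), an immunoglobulin-family adhesion gene, robo2 (292), a Slit receptor, side-VIII (215) and Sema1a (208), a semaphorin. Of these 4, klg, robo2 and Sema1a were found in all 3 replicates.

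Of the synaptic and excitability genes, 14 of 74 had any IDR region and 3 had a distal class C region, Gad1 (498), which encodes the enzyme that makes GABA, the serotonin receptor 5-HT7 (308) and Syt1 (307), the synaptic vesicle calcium sensor. The list held 1.49% of distal class C regions, against 1.05% of all distal regions. Glial genes had 3 of 26, with Gs2 (220), a glutamine synthetase, Nrg (199) and ths (180), and 1.49% of distal class C regions, against 0.623% of all distal regions. Muscle and heart genes had 3 of 36, with kn (147), Mef2 (133) and slou (132), none found in all 3 replicates, and 1.49%, against 1.15%. Trachea and epidermis had 1 of 25, trh, and 0.372%, against 0.431%. None of the 20 blood and fat body genes had a distal class C region (0 of 269, with a 95% Wilson interval up to 1.41%), against 0.527% of all distal regions.

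Among signalling genes, 4 of 41 in the Wnt, Hedgehog and Dpp list had a distal class C region. The region at hh, the Hedgehog ligand, had a signal of 280 and was found in 1 replicate. That at fz2, a Wnt receptor, had 253 and was found in all 3, and those at shn (177) and arr (121) were found in 2. The list held 1.86% of distal class C regions, against 1.73% of all distal regions. In the EGFR and FGFR list 2 of 28 genes had one, aop (334) and the FGF gene ths (180), and the list held 1.12%, against 1.58%. In the list of GATA, forkhead, T-box and ecdysone factors 1 of 43 genes had one, fkh (242), and 24 of the 43 had an IDR region. Its share was 0.372% of distal class C regions (95% Wilson interval up to 2.08), against 2.21% of all distal IDR regions. The Ski, Sno and stress list had 3 of 11, with Atf3 (251), Snoo (200) and fuss (118), and 1.12% of distal class C regions, against 0.911% of all distal regions. The clock list had 1 of 13, cwo, and 0.372%, against 0.863%.

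Regions just inside the TSS limit were those nearest Sqor, at 515 bp with a signal of 271, MTF-1, at 523 bp with 190, and a valine tRNA gene, at 524 bp with 131. Just outside it, and so not counted, were regions nearest Fbl6, at 492 bp with 205, raw, at 492 bp with 155, and Cpsf6, at 476 bp with 238. At the limit of the site window, 17 of the 269 regions had their nearest site reaching more than 90 bp from the summit, and 3 had a CACGTG within 110 bp. A further 12 distal regions counted as having neither site had a class C site within 110 bp.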

How the data were processed

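Regions were those of the deposited narrowPeak lists of 3 replicates, of the pooled data and of the IDR step. Per the deposited file listings, each replicate list rests on 1 alignment plus a control alignment, the pooled list on the 3 alignments plus a control, and the IDR list on these 4 lists, in dm6. For the aligner, the caller and the IDR step, name and version were not given in the sources used here. Signal is the authors' own value per region and was used to rank within a list. The deposited −log10 q-value was tied for many regions and was not used to rank. The summit comes from the authors' offset.

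Genes and TSSs came from Ensembl release 115 (BDGP6.54) without transposable elements (18164 genes, 23581 TSS positions), and sequence from RefSeq release 6, whose coordinates are those of dm6. All region ends lay inside the 6 arms. The motif searches were tested on simulated data. In the 16 gene lists, 525 genes matched. Genes named are those of the 20 strongest regions, up to 4 per list, those with several sites or regions, and those at the TSS limit. Others were chosen after their values were seen. The regions, lists and words were chosen with earlier results of these data known. The 95% Wilson intervals of shares over regions hold counting error alone. Replicate values were compared by exact permutation, without pairing and, as an alternative, paired by replicate list. Python 3.11.15, numpy 2.4.6, scipy 1.17.1, pandas 2.3.3 and matplotlib 3.10.9 were used.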

Additional observations from a re-analysis of the deposited data

How the results depend on the processing

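Each of the 7 replicate comparisons and the intronic share was recomputed under other settings, 65 values in all. No difference changed sign, and no intronic share left the Wilson interval of its main value. The 65 include 1 paired value per comparison, whose mean difference is that of the main setting and so could not change sign. The class C share of distal regions was higher among the highest regions by 5.54 to 8.04 percentage points. The settings were site windows of 50 and 150 bp, TSS limits of 250 and 1000 bp and a smaller set. With a replicate left out, the share was higher by 6.79 to 7.36 points. The smaller set took 50% as many regions from the top and from the bottom of each list, so its groups lay further apart in rank. The share within 25 bp was higher by 8.43 to 16.9 points over limits of 15 and 40 bp and the smaller set, and by 11.1 to 13.5 with a replicate left out. The share with G before the core was higher by 13.02 to 19.6 points when every site was read or the smaller set was used, and by 11.1 to 15.9 with a replicate left out. Against regions with neither site, the share found was higher by 1.55 to 7.74 points, with the smallest value for matching by a reciprocal overlap of 50%, and by 3.92 to 8.56 with a replicate left out. Against E-box regions the difference ran from -7.10 to -1.47 points, and from -6.57 to -1.63 with a replicate left out. In median rank the difference from E-box regions ran from 160 to 334, and from 87.5 to 329 with a replicate left out, and that from regions with neither site from -582 to -356, and from -536 to -257 with a replicate left out. The intronic share stayed between 54.05% and 57.3%. No exact permutation p went below 0.1, and with 2 replicates the smallest possible is 0.333. Values of the same replicate list were also paired (replicate block, an exact sign-flip test added after the data were seen), which leaves each mean difference as it was, for example 7.14 points for the class C share. The paired p was 0.25, the smallest 3 pairs can give, for the 5 comparisons whose 3 pairs had 1 sign and 0.5 for both comparisons with E-box regions. Read depth is unknown, so weak sites below the 30000 listed regions of a replicate cannot be assessed.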
